A study of Mus musculus with 15 samples.

Results

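The comparison described here set 3 livers of 10-week-old mice exposed to arsenic before birth (10 week as/tap) against 3 livers of unexposed mice of the same age (10 week tap/tap), which is 6 of the 15 arrays of the series. The arrays were chosen by their labels and by no measured value. The dams of the as/tap mice drank water with 49 ppm arsenic, given as sodium arsenite at 85 mg per L, from gestational day 8 until birth, and the dams of the tap/tap mice drank tap water. All offspring drank tap water from birth, were weaned on postnatal day 21 and were examined on postnatal day 70. The labels name the strain C57/BL6J, whereas the study describes mice of a B6.129P2 background that lack Apoe in every group, controls included. Each mouse came from a separate litter, so that a litter was represented by 1 liver, and the sex of the 10-week-old mice is not given in the sources used here. Further groups of 3 arrays each served as context. Newborn livers were taken on postnatal day 1, with (newborn as) and without (newborn tap) the same prenatal arsenic. Other 10-week-old mice (10 week tap/as) were given arsenic only after weaning, at 49 ppm, as sodium arsenite at 85 mg per L.

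Inorganic arsenite binds thiol groups of proteins, crosses the placenta and is methylated in the liver. The liver changes its role around birth, since the fetal organ makes blood cells and contains many dividing cells, while the adult organ is dominated by hepatocytes that secrete plasma proteins and process nutrients, bile acids and foreign compounds. Exposure ended at birth in these mice, and the comparison asks which transcript levels still differed after a period on clean water. In RNA from whole liver, fewer cells of a type and less RNA per cell cannot be told apart.

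Each array carried 42006 different probes of 60 bases besides its control spots. RNA of 1 liver, labelled with Cy3, was hybridized together with a common reference RNA pooled from mouse cell lines, labelled with Cy5, and a level is given below as the log2 ratio of liver over reference. A level of 0 therefore means that liver and reference signals were equal after normalization, and a difference between groups is as/tap minus tap/tap on the same log2 scale. The files pair a probe with its sequence but with no gene, and the gene annotation of the array design was not used here, so probes are named by their identifiers and no statement on pathways is made.

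The sequences below are those of the probes on which the single-probe results turn. The first 6 were higher in exposed livers and the last 4 were lower, and capitals mark AATAAA, the hexamer that directs cleavage and polyadenylation near the 3′ end of most messenger RNAs.
Z00011620-1: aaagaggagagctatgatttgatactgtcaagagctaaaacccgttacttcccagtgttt
Z00071536-1: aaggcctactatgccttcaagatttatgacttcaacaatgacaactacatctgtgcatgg
Z00034167-1: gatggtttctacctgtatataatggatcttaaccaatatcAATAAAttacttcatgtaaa
Z00060318-1: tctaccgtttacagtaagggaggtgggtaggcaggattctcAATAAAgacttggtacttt
Z00034774-1: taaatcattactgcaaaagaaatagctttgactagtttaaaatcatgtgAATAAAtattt
Z00063583-1: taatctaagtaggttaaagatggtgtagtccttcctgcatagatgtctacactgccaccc
Z00022887-1: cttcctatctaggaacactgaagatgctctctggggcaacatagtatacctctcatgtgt
Z00005948-1: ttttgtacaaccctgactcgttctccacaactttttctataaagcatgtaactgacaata
Z00006191-1: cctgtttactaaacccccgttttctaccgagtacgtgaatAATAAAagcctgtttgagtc
Z00033396-1: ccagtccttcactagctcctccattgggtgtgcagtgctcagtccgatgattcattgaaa

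Of the 42006 probes, 1080 (2.57%) were higher and 238 (0.567%) were lower in livers exposed before birth at an unadjusted p of 0.01 (limma, 12 arrays in the model). None passed a Benjamini-Hochberg adjusted p of 0.05 in limma, where the smallest adjusted p was 0.128 and 4278 probes had an unadjusted p under 0.05, and the unmoderated model also called 0. The differences were small. Among the probes called higher the median difference was 0.36 and 90% lay within 0.56, and among those called lower the median was -0.30 and 90% lay within 0.63 in size. Of the called probes, 7 in each direction differed by 2-fold or more. Exposed and control livers had no overlapping values for 1052 of the probes called higher and for 225 of those called lower. Over all probes, the groups were separate with the exposed livers higher for 13.7% and with the exposed livers lower for 6.08%. The labels give the replicate numbers no meaning, and they were taken to pair the arrays only because same-numbered arrays deviated together. With the number as a block within the 6 arrays, 2488 probes passed the unadjusted threshold, 76.6% of them higher, and 0 passed the adjustment.

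Single arrays moved the count, and leaving out 1 control array also turned the direction. When tap/tap replicate 1 was left out, 1807 probes (4.3%) were higher and 2404 (5.72%) were lower at the same unadjusted threshold, so that 42.9% of the called probes were higher in place of 81.9%. With adjustment, 806 probes (1.92%) were higher and 1262 (3.0%) lower without that array, and 24 and 11 of these differed by 2-fold or more. The calls made with all arrays mostly held without it, as 894 of the 1080 higher probes (82.8%) and 157 of the 238 lower probes (66.0%) were called again in the same direction and 0 in the opposite one. The reverse did not apply. The 894 probes were 49.5% of the higher calls made without that array, and the 157 probes were 6.53% of its lower calls. With tap/tap replicate 2, tap/tap replicate 3, as/tap replicate 2 or as/tap replicate 3 left out, the count of calls was 743, 624, 615 or 838, and 64.6% to 84.6% of them were higher.

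Tap/tap replicate 1 lay apart from the other controls. Its log2 ratios correlated across probes with those of tap/tap replicates 2 and 3 at 0.960 each, while replicates 2 and 3 correlated at 0.990 with each other. It correlated most closely with as/tap replicate 1, at 0.981, and the as/tap arrays correlated with one another at 0.982 to 0.988. The median absolute gap per probe was 0.13 between tap/tap replicate 1 and the mean of the other controls, against 0.07 between those 2 controls. Of the 1262 probes that passed the adjustment as lower without this array, 99.1% had in tap/tap replicate 1 a level below both other controls, against 43.5% of all probes. Of the 806 that passed as higher, 94.9% had in it a level above both other controls, against 38.4% of all probes. The left-out control thus lay on the same side as the exposed livers for nearly all of these probes, although part of this follows from choosing probes by the other controls. The main shares below are given with all arrays and without this one.

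The probes with the smallest p among those called higher and not overlapping between groups rose by 0.36 to 0.76 in log2. Z00011620-1 had levels of -0.03, -0.19 and -0.17 in the controls and 0.44, 0.58 and 0.51 in the exposed livers. The groups were well apart, and the difference was 0.64 (standard error 0.08, limma unadjusted p = 3.36e-06, adjusted p = 0.128). Z00071536-1 was at 1.02, 1.07 and 1.04 in the controls and at 2.1, 1.62 and 1.69 in the exposed livers, with as/tap replicate 1 the highest. Its difference was 0.76 (standard error 0.10). Z00034167-1, which holds the polyadenylation hexamer, was close to the reference in the controls (0.02, -0.16 and -0.11) and above it in the exposed livers (0.53, 0.87 and 0.46). It rose by 0.70 (standard error 0.10).

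Several of these probes measured transcripts scarcer in adult liver than in the reference. Z00034774-1, at -2.0, -2.14 and -2.0 in the controls, was at -1.71, -1.60 and -1.61 in the exposed livers, a rise of 0.40 with a standard error of 0.06. Z00055841-1 went from -1.84, -1.90 and -1.89 to -1.55, -1.48 and -1.52, a rise of 0.36. Z00060318-1 was at -0.81, -0.96 and -0.88 in the controls and at -0.48, -0.39 and -0.45 in the exposed livers. In each of these probes every exposed liver was nearer to the reference than every control. Z00023300-1, in contrast, was far above the reference in all livers (2.52, 2.49 and 2.52 in the controls), and it was at 3.05, 3.14 and 3.21 after prenatal exposure. The remaining probes of this set, Z00010822-1, Z00068093-1 and Z00061672-1, rose by 0.51, 0.42 and 0.64. All 10 were called higher again without tap/tap replicate 1. From the Cy3 signal alone, with no division by the reference, 6 of the 10 were also called higher. The 10 were chosen on these same arrays, so being called again is no independent support.

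**Figure D1:**
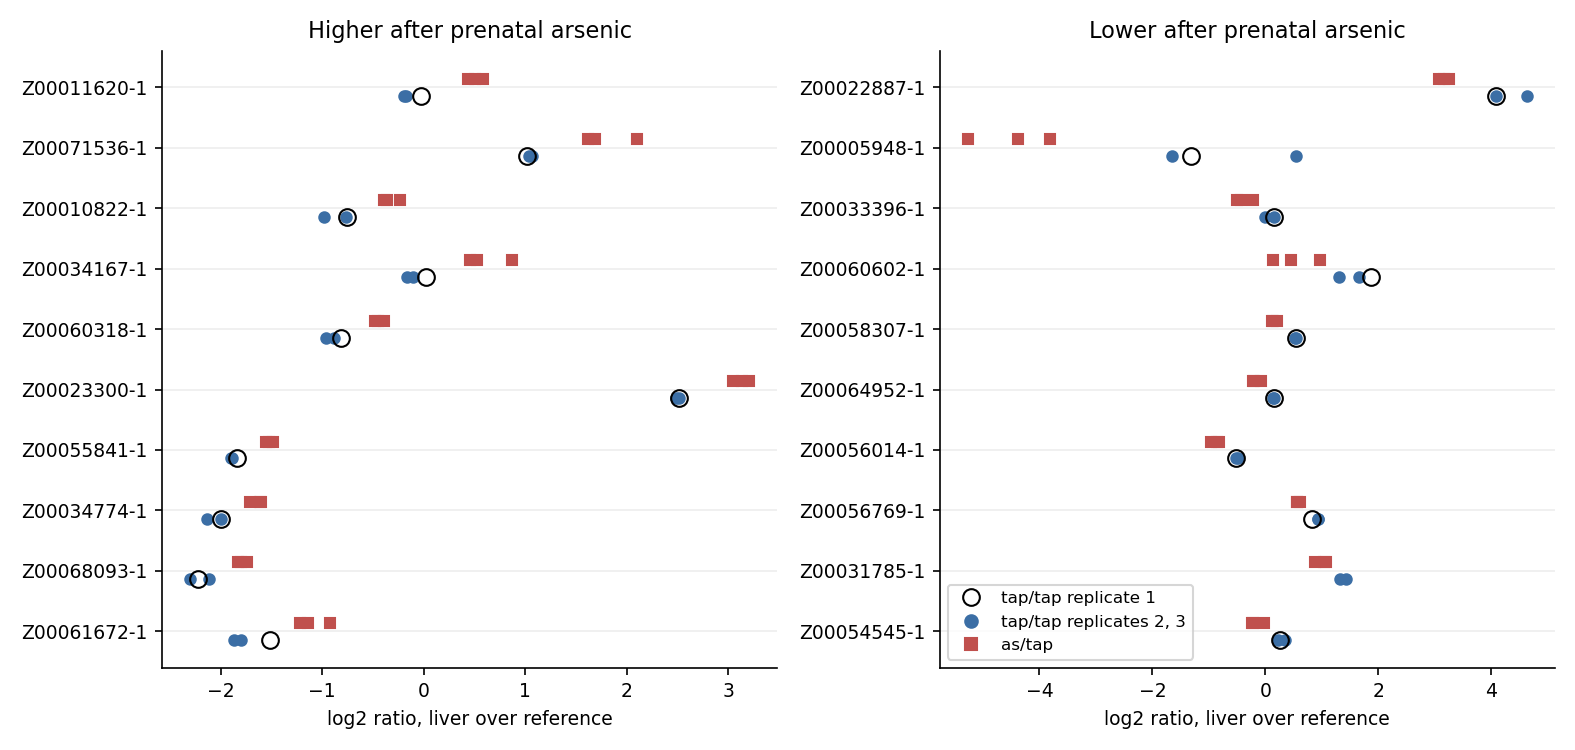
Log2 ratio of liver over reference (horizontal axis) on each of the 6 arrays for the 10 probes with the smallest p in each direction whose groups do not overlap, with the probe identifiers on the vertical axis. Open circles are tap/tap replicate 1, filled circles tap/tap replicates 2 and 3, and squares as/tap; Z00005948-1 shows the widest gap, from between -1.65 and 0.55 in the controls to between -5.27 and -3.82 in the exposed livers.

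The lower probes included the largest difference of the comparison. Z00005948-1 was at -1.31, -1.65 and 0.55 in the controls and at -3.82, -5.27 and -4.38 in the exposed livers. The controls themselves spanned more than 2 log2 units, and every exposed liver lay below all of them. The difference was -3.69 (standard error 0.59, limma adjusted p = 0.146), which is 12.9-fold. Z00006191-1 moved in the same way, from -1.76, -1.83 and -0.38 to -3.31, -4.41 and -3.67, a difference of -2.47 (standard error 0.50). The levels of this pair of probes correlated at 0.99 over the 15 arrays of the series, a value that includes the change between newborn and adult liver. Both were above the reference in newborn liver, where Z00005948-1 ranged from 0.53 to 2.20 over the 6 newborn arrays.

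Z00022887-1, a transcript enriched in adult liver, was at 4.09, 4.09 and 4.63 in the controls and at 3.25, 3.08 and 3.16 in the exposed livers. It fell by 1.11 (standard error 0.15, limma adjusted p = 0.128), or 2.15-fold, and in newborn liver it stood between -0.07 and 0.43. Z00033396-1 was at 0.16, -0.01 and 0.16 in the controls and at -0.21, -0.50 and -0.43 after exposure, a fall of 0.48 in log2. Z00058307-1 varied little within either group, at 0.54, 0.52 and 0.55 against 0.20, 0.14 and 0.11. For Z00031785-1 the spot of tap/tap replicate 1 was marked as an outlier by the scanner software and left out. Its difference of -0.38 thus rests on 2 controls, 1.43 and 1.33, and 3 exposed livers, 0.88, 1.08 and 1.04. With the replicate number as a block this probe no longer passed the threshold. All 10 lower probes were called again without tap/tap replicate 1, and 9 of the 10 in the liver channel alone. For Z00031785-1 leaving out that array removed no value. The 10 were chosen on these same arrays, so being called again follows in part from the choice.

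The 14 probes called with a difference of 2-fold or more all had groups that did not overlap, and 13 of them lay in the brightest quintile of liver signal. Among those higher, Z00063583-1 was at -0.09, -0.72 and -1.16 in the controls and at 0.84, 1.17 and 1.78 in the exposed livers. It rose by 1.92 (standard error 0.31), or 3.78-fold. Z00014657-1 was at -1.24, -1.73 and -1.64 against 0.08, 0.90 and -0.32, and rose by 1.75. Z00035002-1 was at -1.27, -1.96 and -2.44 against -0.78, -0.11 and -0.59, and rose by 1.40. Its newborn levels lay between 1.64 and 2.31, so the exposed adult livers were nearer to the newborn level than the adult controls were. Among those lower, Z00030685-1 was at 1.24, 0.89 and 2.53 in the controls and at -0.13, -0.39 and -0.19 in the exposed livers, a fall of 1.79. A trio of lower probes, Z00026790-1, Z00067945-1 and Z00060602-1, correlated at 0.98 to 1.00 in pairs over the 15 arrays. These correlations include the change between newborn and adult liver, and the probes stood between 2.94 and 4.36 in newborn livers. Their differences at 10 weeks were -1.0, -1.22 and -1.10. Of the 14 probes, 13 were called again without tap/tap replicate 1, 10 with an adjusted p under 0.05. All 14 were called in the liver channel alone. These probes, too, were chosen on the same arrays.

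The livers given arsenic only after weaning were compared for the same probes. Measured against the means of the as/tap and the tap/tap groups, tap/as replicate 1 was nearer to the as/tap mean for 12 of the 14 probes, replicate 2 for 6 and replicate 3 for 4. For Z00005948-1 the 3 tap/as livers were at -3.02, -0.01 and 0.00, so that 2 of them lay within the range of the controls. For Z00022887-1, Z00030685-1 and Z00051485-1 all 3 tap/as livers were nearer to the as/tap mean. Z00022887-1 was at 2.96, 3.51 and 3.46 in them, a difference from tap/tap of -0.95 (limma adjusted p = 0.026), and the other two differed by -1.67 (adjusted p = 0.117) and 1.02 (adjusted p = 0.133). The tap/as and as/tap comparisons share their control arrays, and the 14 probes were chosen by the latter. The counts of probes nearer to the as/tap mean were not tested.

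Probes called higher were most frequent among the brightest. When the probes were ranked by their mean normalized Cy3 signal over the 6 arrays, the brightest quintile held 762 of the 1080 probes called higher (70.6%), which is 9.07% of that quintile. The share called higher was 2.23% in the next quintile, 0.714% in the middle one, and 0.464% and 0.381% in the dimmest ones. Probes called lower were spread more evenly, from 0.405% in the middle quintile to 1.02% in the brightest. In the brightest quintile 5.09% were called higher without quantile normalization, and in the liver channel alone 2.18% were called higher and 4.31% lower, with the lower calls most frequent in the next quintile (5.38%). Without tap/tap replicate 1 the brightest quintile held 13% higher and 11.7% lower calls, against 0.655% and 0.655% in the dimmest. The liver channel was dimmer in the exposed arrays before normalization, with a median signal over background of 146 to 193 scanner units in the controls and 133 to 138 in the exposed livers. The reference channel was dimmer as well, at 418 to 502 units in the controls and 371 to 402 in the exposed arrays, and the part of these gaps in the counts was not tested. On these arrays 89.6% to 94.8% of the spots were brighter than 95% of the negative controls.

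**Figure D2:**
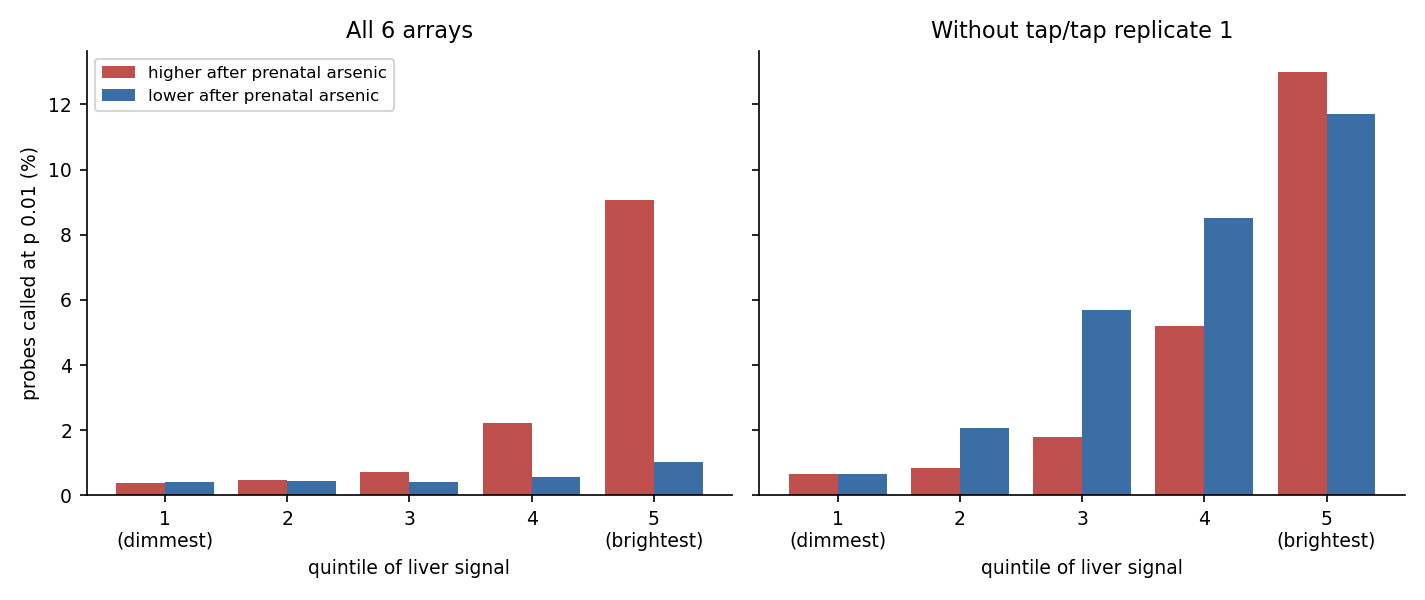
Percentage of probes with an unadjusted p under 0.01 (vertical axis, %) in each quintile of mean liver signal (horizontal axis), with all 6 arrays and without tap/tap replicate 1. Higher calls reach 9.07% in the brightest quintile with all arrays, and lower calls reach 11.7% there only without tap/tap replicate 1.

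Transcripts scarcer in liver than in the reference rose most often. Of the 3676 probes with a mean log2 ratio under -1, 11.3% were called higher and 0.462% lower, with a median difference of 0.11. The share called higher was 5.22% without quantile normalization and 2.77% in the liver channel alone, with medians of 0.12 and 0.11. Of the 35663 probes within 1 of the reference, 1.69% were higher and 0.586% lower, with a median of 0.00. Of the 2667 probes above 1, the transcripts enriched in liver, 2.32% were higher and 0.450% lower, with a median of 0.03. Without tap/tap replicate 1 the scarce transcripts were called higher in 14.1% and lower in 0.952%, whereas the enriched ones were called higher in 5.89% and lower in 17.1%. In these 2 fits the lower calls among liver-enriched transcripts were frequent only where that array was left out.

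Of the classes formed by both properties, the bright probes scarce in liver were called higher most often. Of the 1075 probes in the brightest quintile with a ratio under -1, 28.7% were called higher and 0.279% lower. Their median level per array was -1.59, -1.71 and -1.68 in the controls and -1.40, -1.39 and -1.44 in the exposed livers, so that every exposed array lay above every control array. The difference between the group means was 0.25, and an exact two-sided permutation test over the 6 arrays gave p = 0.1, the smallest that 3 against 3 arrays allow. The class was singled out by its calls on these same arrays, so this p is no support for it. Other classes reached the same p, among them the probes within 1 of the reference in the dimmest quintile. The shares were 32.7% and 0.651% without tap/tap replicate 1. The share called higher was 11.8% without tap/tap replicate 2, 18.0% without tap/tap replicate 3 and 14.8% without as/tap replicate 2. The reference channel alone showed a median difference of 0.01 for these probes, and the liver channel alone one of 0.17, with 4.93% called higher. Without quantile normalization 10.8% were called higher. In the next quintile, 9.64% of the 923 probes with a ratio under -1 were called higher, while none of 319 such probes in the dimmest quintile were, where 0.627% were called lower.

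The size of this shift depended on the scaling. The median difference of the 1075 probes was 0.26 after the main processing, 0.19 without background subtraction and with the scanner's own log ratio, 0.16 without quantile normalization, and 0.04 when the log ratios of all arrays were forced to one distribution after loess. It kept its sign in each. Of the called probes, 69.8% were higher with the scanner's own log ratio, 53.9% with ratios forced to one distribution and 21.8% with the liver channel alone, where 393 probes (0.936%) were called higher and 1408 (3.35%) lower. Of the 1080 probes called higher in the main processing, 268 (24.8%) were also called higher in the liver channel alone and 1 was called lower, and of the 238 called lower, 135 (56.7%) were also called lower and 0 higher. The scalings of the ratio moved the size of the majority and kept its direction, which turned in the liver channel alone, while 1 call of a single probe reversed between the ratio and the liver channel.

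**Figure D3:**
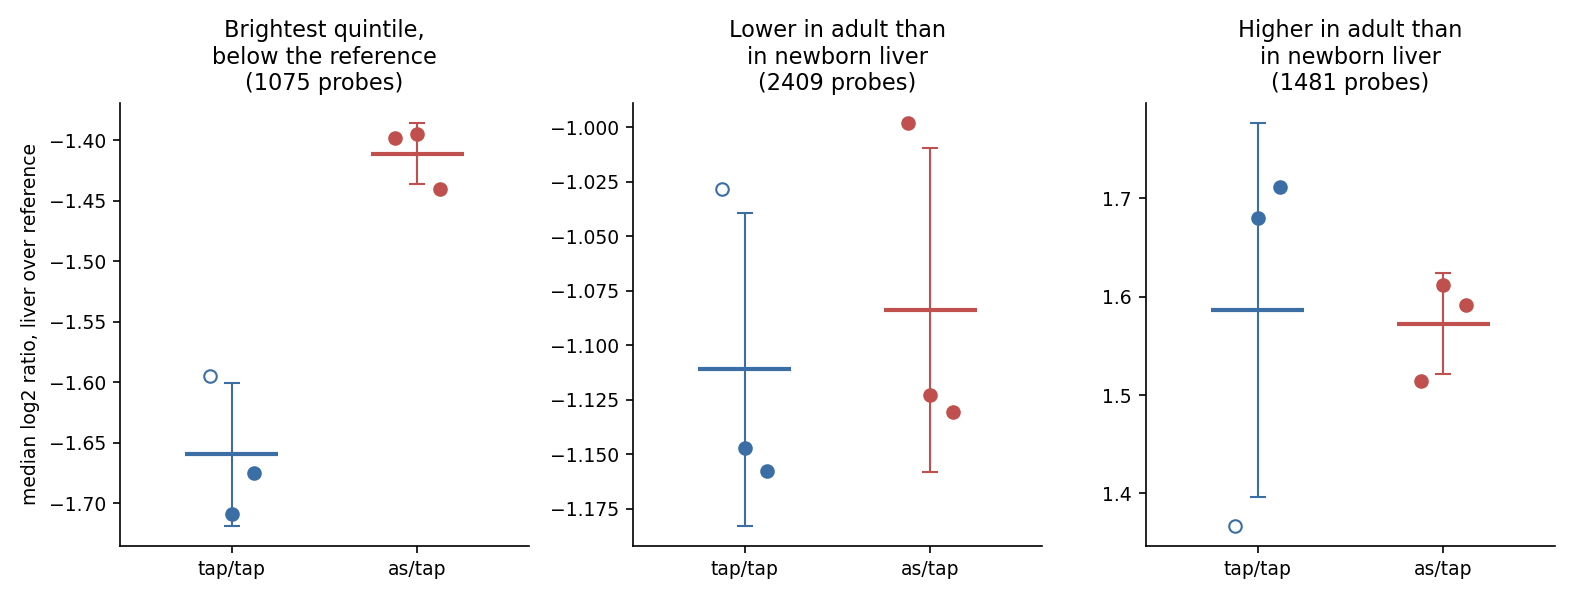
Median log2 ratio of liver over reference per array (vertical axes, each with its own scale) for 3 classes of probes in tap/tap and as/tap livers; points are arrays, the open point is tap/tap replicate 1, horizontal lines are group means and bars are SD. The groups are apart only in the first class, where the arrays run from -1.71 to -1.59 in the controls and from -1.44 to -1.39 after exposure.

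The direction of the normal change between newborn and adult liver was compared with the effect of prenatal arsenic. Between newborn tap and 10 week tap/tap livers, 2735 probes (6.51%) were lower and 1501 (3.57%) higher at 10 weeks with an adjusted p under 0.05 and at least a 2-fold difference. These classes use the same control arrays as the arsenic comparison, which ties the directions together, so their counts describe and support nothing. Of the transcripts lower in adult liver, 10.6% were called higher after prenatal arsenic. Of those higher in adult liver, 1.87% were called higher and 0.533% lower with all arrays, and 5.06% and 35.1% without tap/tap replicate 1.

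The same classes were then taken from arrays outside the groups compared, 10 week tap/as against newborn tap livers. Those adults had received arsenic themselves after weaning, and the newborn arrays entered the normalization and the spread of the model that made the arsenic calls. By this route 2409 probes (5.73%) were lower and 1481 (3.53%) higher in adult liver. Of the transcripts lower in adult liver, which is the direction of fetal blood-forming and proliferation transcripts, 7.14% were called higher after prenatal arsenic and 0.872% lower, against 2.26% and 0.559% of the 38116 probes in neither class. Their median difference was 0.07. It was 0.02 without background subtraction and -0.0015 when the ratios were forced to one distribution, and the share called higher was 3.49% without quantile normalization (1.5% of the probes in neither class) and 2.24% in the liver channel alone (0.826%). Of those higher in adult liver, 3.17% were called higher and 0.270% lower, with a median difference of 0.02. Without tap/tap replicate 1 the shares became 9.63% higher and 0.706% lower for the former, and 6.75% higher and 20.2% lower for the latter.

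Per array, the groups overlapped in both classes. The transcripts lower in adult liver had median levels of -1.03, -1.15 and -1.16 in the controls and of -1.0, -1.12 and -1.13 in the exposed livers, and replicate 1 was the highest in each group. The transcripts higher in adult liver had median levels of 1.37, 1.68 and 1.71 in the controls and of 1.51, 1.61 and 1.59 in the exposed livers, and replicate 1 was the lowest in each group. Among these 6 arrays, tap/tap replicate 1 was thus nearest to the newborn pattern by both classes, apart from as/tap replicate 1 in the former. The exact permutation tests over the 6 arrays gave p = 0.5 and p = 1.0. By replicate number, a pairing that the labels do not give, the former class was higher in the exposed liver in 3 of 3 pairs. The differences were 0.03, 0.02 and 0.03 (exact paired permutation p = 0.25, the smallest that 3 pairs allow). The latter class differed by 0.15, -0.07 and -0.12. Within the 1075 bright probes scarce in liver, the life stage made little difference to the share called higher, 29.6% of the 382 probes lower in adult liver and 28.3% of the 690 in neither class, and this difference was not tested.

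**Figure D4:**
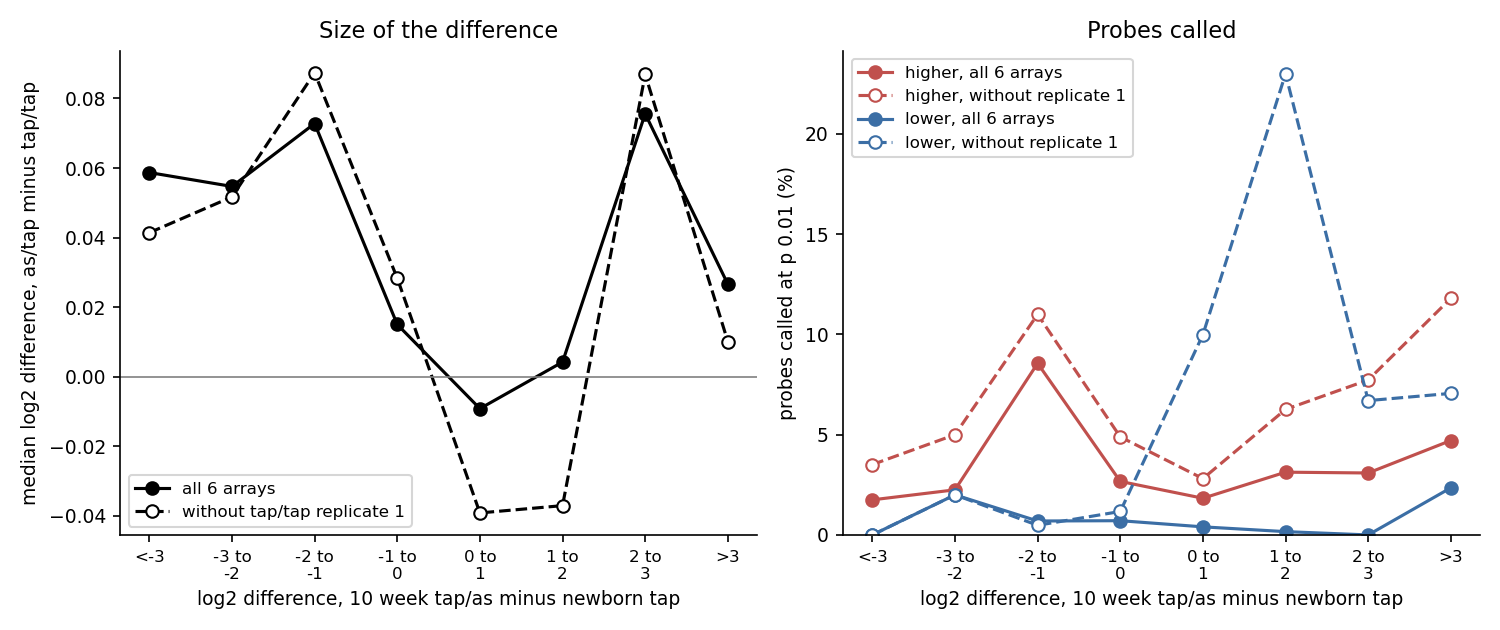
Median log2 difference between as/tap and tap/tap (left) and share of probes called (right, %) against the change from newborn tap to 10 week tap/as liver in log2 bins (horizontal axes); solid lines use all 6 arrays and broken lines leave out tap/tap replicate 1. Lower calls without that array peak at 23% in the bin from 1 to 2, where 0.165% were called lower with all arrays.

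The dependence on life stage was uneven along its range. Among transcripts lower in adult liver by 1 to 2 log2 units, 8.56% of 1870 probes were called higher. Of the 400 probes lower by 2 to 3 units 2.25% were called higher and 2.0% lower, and of the 171 probes lower by more than 3 units 1.75% were called higher and none lower. At the other end, of the 85 probes higher by more than 3 units 4.71% were called higher and 2.35% lower. When tap/tap replicate 1 was dropped, these shares were 5.0% higher and 2.0% lower for the 400 probes, 3.51% higher for the 171 probes, and 11.8% higher and 7.06% lower for the 85 probes.

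The called probes differed from all probes in base composition and in how often they held the polyadenylation hexamer, although neither was used to choose them. Probes called higher had a median GC content of 41.7% and those called lower of 46.7%, against 43.3% of all probes. When probes were ranked by GC content, the share called higher fell from 3.89% in the lowest quintile to 1.31% in the highest, and the share called lower rose from 0.250% to 1.12%. The median difference went from 0.05 to -0.03 along the same order. With tap/tap replicate 1 left out, the share called higher fell from 6.37% to 2.51% and the share called lower rose from 3.12% to 7.09%, and the median GC content was 41.7% for higher and 45.0% for lower calls. AATAAA, searched on the strand of the probe as deposited, occurred in 2836 probes (6.75% of all), in 15.5% of those called higher and in 5.04% of those called lower. Of the probes holding it, 5.89% were called higher, against 2.33% of the others. These shares were 3.56% and 1.55% without quantile normalization, and 1.59% and 0.888% in the liver channel alone. Its reverse complement, TTTATT, has the same GC content and occurred in 1437 probes, of which 87 held both hexamers. Of these 1437 probes 2.44% were called higher, against 2.58% of the probes without it, while without tap/tap replicate 1 the shares were 5.71% and 4.25%. The gap for AATAAA was the wider one in both fits, and the difference between the hexamers was not tested. In both fits to the log ratio, the order seen for AATAAA held in every quintile of GC content. With all arrays it went from 6.29% against 3.51% in the lowest to 3.39% against 1.28% in the highest. Without tap/tap replicate 1 it went from 9.22% against 5.91% to 7.63% against 2.44%. It also held in the brightest quintile of signal, with 16.3% of 849 probes with the hexamer and 8.26% of 7552 without it (21.6% and 12.1% without tap/tap replicate 1), but not in the dimmest quintiles, with 0.364% against 0.382% and 0.230% against 0.477%. In those dimmest quintiles the order turned without tap/tap replicate 1, to 0.729% against 0.649% and 1.84% against 0.778%, and in the middle quintile it turned the other way, from 1.09% against 0.693% to 1.52% against 1.80%. Over all probes, 8.50% of those with the hexamer and 4.0% of those without it were called higher in that fit. Of the 1075 bright probes scarce in liver, 37.4% of the 147 with the hexamer and 27.3% of the 928 without it were called higher with all arrays, and 37.4% and 31.9% without tap/tap replicate 1. RNA integrity was not among the values used here, and its part in this pattern was not tested.

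**Figure D5:**
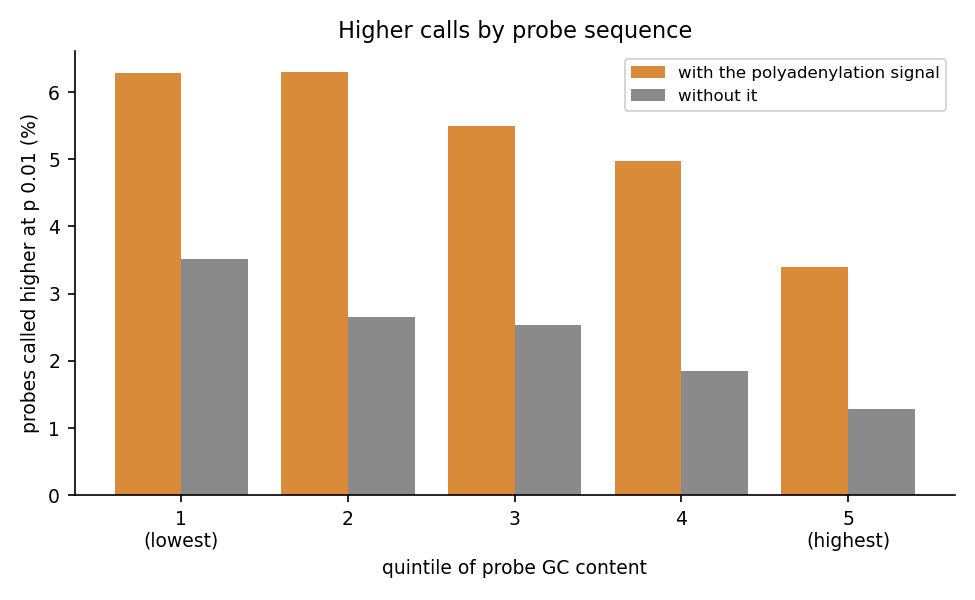
Share of probes called higher after prenatal arsenic at an unadjusted p of 0.01 (vertical axis, %) in each quintile of probe GC content (horizontal axis), for probes with and without the polyadenylation hexamer. The share is larger with the hexamer in all quintiles, 6.29% against 3.51% in the lowest and 3.39% against 1.28% in the highest.

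The differences at 10 weeks were set beside those at birth, newborn as against newborn tap, which share no array with them. At birth, 638 of all probes (1.52%) were higher and 436 (1.04%) lower after prenatal arsenic at the same unadjusted threshold. Of the 1080 probes higher at 10 weeks, 12 (1.11%) were higher and 28 (2.59%) lower at birth, with a median difference of -0.02. Of the 238 probes lower at 10 weeks, 5 (2.1%) were higher and 2 (0.840%) lower at birth, with a median difference of -0.01. The shares called in the same direction at both ages, 1.11% and 0.840%, were thus not above those of all probes. None of the 14 probes that differed by 2-fold or more at 10 weeks was called at birth.

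Z00011620-1 moved in opposite directions at the 2 ages. It stood at -1.39, -1.53 and -1.29 in newborn tap livers and at -1.86, -1.76 and -1.77 in newborn as livers, a difference of -0.39 (standard error 0.08), so that the newborn groups did not overlap either. At 10 weeks it was higher after the same exposure, and the difference between the effects was 1.03 (limma adjusted p = 0.038 over all probes). This transcript normally rises after birth, by 1.28 between newborn tap and 10 week tap/tap livers. The livers given arsenic after weaning, compared with the same controls, had levels of 0.78, 0.81 and 0.87.

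Only 152 probes could be given a gene, by a run of at least 25 of their bases in the first 50 transcribed bases of a single RefSeq gene of GRCm38.p6. The probe of Cyp3a11, the main drug-metabolizing cytochrome P450 of its family in mouse liver, matched chr5:145879805-145879854 on the minus strand at the start of the first exon. It was the most liver-enriched of them, with levels of 5.96, 5.86 and 5.98 in the controls and 6.22, 6.09 and 6.15 in the exposed livers. Its groups did not overlap, but the difference of 0.22 (standard error 0.41) did not pass the test in a model that takes its spread from newborn livers as well (limma unadjusted p = 0.598). Most markers of liver cell types had no named probe. With all arrays 0 of the 152 probes had an unadjusted p under 0.01 (limma), against 3.14% of all probes. Under 0.05 there were 8 (5.26%), against 10.2% of all. The 152 were named by their place at the start of a gene and are no sample of all probes. Their shares therefore do not show that the named genes were unaffected.

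The smallest p among the named genes belonged to Pla2g2d, which encodes a secreted phospholipase A2. Its levels were 0.45, -0.04 and 0.37 in the controls and -0.07, -0.11 and -0.14 in the exposed livers, with a difference of -0.37 (limma unadjusted p = 0.014, adjusted p = 0.34). The probe at the start of Cfap410, a gene of cilia, had levels of 2.34, 3.53 and 3.23 in the controls and 1.99, 1.73 and 2.57 in the exposed livers, which overlapped. Its difference was -0.94 with all arrays (limma unadjusted p = 0.0183) and -1.28 without tap/tap replicate 1. Rpl10a, a protein of the large ribosomal subunit, was at -0.08, -0.32 and -0.39 against -0.53, -0.52 and -0.44, a difference of -0.23 (limma unadjusted p = 0.0452). None of these 3 passed the threshold of 0.01 with all arrays. Without tap/tap replicate 1, 1 named probe (0.658%) was called higher and 9 (5.92%) lower at that threshold. Of all probes, 4.3% were higher and 5.72% lower in that fit. The 9 were Cfap410, Lysmd1, Frg2f1, Gm1653, Gm30225, Cdca7 and the olfactory receptor genes Olfr615, Olfr559 and Olfr1424. Olfactory receptor genes made up 29 of the 152 named probes. The probes of Olfr615 and Olfr559 lay in the brightest quintile, and whether they measured these genes was not tested. Cdca7, a gene of dividing cells, was at 0.25 and 0.18 in the remaining controls and -0.08, -0.06 and 0.00 in the exposed livers. Tap/tap replicate 1 was at -0.02, within the exposed range. With all arrays the groups overlapped for each of the 9.

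Of the gene lists drawn up for stress, metabolism and cell types, few members had a named probe. Prdx1, a peroxidase that removes hydrogen peroxide, was at 0.12, 0.34 and 0.35 in the controls and -0.06, 0.18 and 0.26 in the exposed livers. Taldo1, an enzyme of the pentose phosphate pathway, was at 0.32, 0.11 and 0.16 against 0.02, -0.03 and 0.11. Hspa1a, an inducible heat shock protein, was at -0.15, 0.06 and 0.40 against 0.03, 0.13 and 0.12, and its probe lay in the dimmest quintile. Sec61b, a subunit of the channel that carries proteins into the endoplasmic reticulum, differed by 0.06 and Fau, a ribosomal protein precursor, by 0.07. None of these passed the threshold in either fit.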

How the data were processed

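Livers were measured on two-colour 60-base oligonucleotide arrays, 1 array per mouse and slide, with liver RNA in Cy3 and reference RNA in Cy5 on all 15 arrays. The authors deposited scanner output of Agilent Feature Extraction A.7.5.1: mean and background intensity of each spot in both dyes on a linear scale, without normalization between arrays, and a log10 ratio of red over green after the software's own corrections (here used only as an alternative, with its sign turned). Each array held 44290 spots, of which 1942 were positive and 314 negative controls.

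Intensities were background-corrected (normexp, offset 50), quantile normalized per channel over 12 arrays (tap/tap, as/tap and both newborn groups), converted to log2 of Cy3 over Cy5 and smoothed by loess (span 0.3, control spots at weight 0). Outlier spots were set missing, control spots dropped, and spots averaged to 42006 probes. The study's mean-centring was not repeated and background correction was added. Group means were estimated by limma 3.58.1 under R 4.3.3 (residual degrees of freedom 8, prior 3.08). The study's threshold of 0.01 was read as unadjusted. Arrays left out were dropped after normalization. Classes from tap/as livers used a fit to 15 arrays. The fits were tested on simulated data. Identical Cy3 signals made up at most 0.0428% of spots between any 2 arrays. Precision is limited by having 3 arrays in a group.

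Same-numbered arrays deviated together from their group means (correlations across probes of 0.375, 0.159 and 0.159), and by the rule that every such correlation exceed 0.1 the numbers were taken to pair the arrays. The labels give them no meaning, and tap/tap replicate 2 correlated more closely with as/tap replicate 3 (0.253) than with as/tap replicate 2. The 10-week arrays were extracted on 1 day and the newborn arrays on another, so day and age cannot be told apart.

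Named probes were the 10 in each direction with the smallest p at 0.01 and groups that did not overlap, those called with a 2-fold difference, and matched genes. The rule named genes first and was widened to probes because the files hold no gene names, and matching to RefSeq starts and the comparison by GC content and hexamer were added after the files were seen. Most gene lists could therefore not be evaluated. The comparison, lists and tests were chosen with earlier results of these data known. Alternatives covered background, normalization, dim probes, model, block, array weights and each array left out.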

Additional observations from a re-analysis of the deposited data

Results flagged for a closer look

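Among the 63 probes named, the effect of prenatal arsenic differed between the 2 ages for Z00011620-1. It was lower in exposed newborn livers and higher in exposed 10-week-old livers, and the difference between the effects was 1.03 (limma adjusted p = 0.038 over all 42006 probes). Over all probes, 2 passed this test of the difference at an adjusted p of 0.05, and 1176 at an unadjusted p of 0.01. The newborn arrays were extracted on another day than the 10-week arrays, and the part of this in the difference was not tested.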

How the results depend on the processing

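The count of 1318 probes at an unadjusted p of 0.01 stayed within 1.5 times except with ratios quantile normalized after loess (488), the replicate block (2488) and array weights (7079), and it ranged from 615 to 4211 when each array was left out. The share of higher probes, 81.9%, was 69.8% with the scanner's own log ratio, 53.9% with ratios quantile normalized after loess, 56.7% with array weights and 21.8% with the liver channel alone, and 42.9% to 84.6% when each array was left out. Adjusted calls, 0 in the main fit, were 2 without background subtraction, 1 with the scanner's own log ratio, 149 in the liver channel alone, 1 with all 15 arrays, 6246 with array weights, which gave tap/tap replicate 1 a weight of 0.285 and replicate 2 one of 2.50, and 0 to 2068 when each array was left out. The share of bright probes scarce in liver that were called higher, 28.7%, was 9.12% with the scanner's own log ratio, 10.8% without quantile normalization, 1.12% with ratios quantile normalized after loess, 4.93% in the liver channel alone and 55.3% with array weights, and 11.8% to 32.7% when each array was left out. Without tap/tap replicate 2, tap/tap replicate 3, as/tap replicate 2 or as/tap replicate 3, 743, 624, 615 and 838 probes were called. The cause of these shifts was not tested. Over 18 alternatives, the 20 probes with the smallest p gave 360 values. Of these, 350 kept their direction and passed the threshold, 10 kept their direction only and 0 reversed. The 20 were chosen by p on these same arrays, so this result follows in part from the choice and is no independent support. The replicate block changed 1 of these calls, that of Z00031785-1, to -0.32 at an unadjusted p of 0.0248 (limma). The filter against negative controls was added after the data were seen and gave 1282 calls, and the planned filter on the scanner's own flags gave 1318. Gene list alternatives were not run for want of gene names.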
